A study of Mus musculus with 8 samples.

Results

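A set of 8 cytokine genes of helper T cells was followed in single-cell RNA-seq of mouse splenic T cells: Il4, Il5, Il13 and Il3, Il17a, Il17f and Il22, and Il10. They are 8 of the 20170 genes in the count table. They were chosen by name after their values in these libraries had been seen, from the summed UMIs (unique molecular identifiers, 1 per captured mRNA molecule) per library and cell class, the share of cells with a UMI, the share of UMIs held by the top 1% of cells and the difference between the replicate knockout libraries. Their levels in the same libraries are therefore given as a description, with no test.

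The series held 8 libraries of WT or SDHA-KO T cells, without or with stimulation, and 2 libraries in each of these 4 groups. SDHA-KO denotes Sdha fl/fl CD4-Cre mice on the B6 background, in which Cre recombinase driven by the Cd4 promoter deletes the floxed gene for SDHA, the catalytic subunit of mitochondrial complex II (succinate dehydrogenase); WT denotes mice without the deletion, and the mice of the study were 8 to 12 weeks old. Splenic T cells were enriched with a Pan T kit that depletes other cells, were kept unstimulated or were activated over 48 hours by soluble antibodies against CD3 (5 μg/mL) and CD28 (2.5 μg/mL), and were freed of dead cells before capture. The labels do not say whether the 2 replicates of a group came from separate mice, so the p-values below measure the spread between these libraries, which may be technical. The class of each cell (CD4 or CD8) and its Subtype (a numbered naive, Tcm, Tem or Treg cluster, after central memory, effector memory and regulatory T cells) are those the authors deposited.

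IL-4, IL-5 and IL-13 are the signature cytokines of type 2 helper T cells, which act through the transcription factor GATA3, and IL-3 is a growth factor for basophils and mast cells that activated T cells make. IL-17A, IL-17F and IL-22 are made by type 17 cells, which are maintained by IL-23 signaling and include both CD4 T cells and γδ T cells. IL-10 restrains immune responses and can be made by regulatory, type 2 and many other activated T cells. After T cell receptor and CD28 engagement, NFAT and AP-1 bind cytokine promoters, and memory and innate-like T cells can transcribe these genes within hours.

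By RefSeq coordinates on GRCm38.p6, 4 of the members lie on chromosome 11: Il4 at chr11:53612460-53618665, Il13 at chr11:53631323-53634702, Il5 at chr11:53720794-53725103 and Il3 at chr11:54265085-54267279. Il13 lies 12.7 kb from Il4, the 2 genes of the classical type 2 locus, whereas Il3 lies 540.0 kb beyond Il5, next to Csf2. On chromosome 1, Il17a (chr1:20730905-20734496) and Il17f (chr1:20777146-20785274) are 42.6 kb apart, and Il10 lies far from both at chr1:131019845-131024970. Il22 lies on chromosome 10, at chr10:118204584-118210047, in the cluster that also holds Ifng. The 250 bases before the start site are printed for Il17a, Il13 and Il4, the members with the clearest contrast in promoter letters, from RefSeq on GRCm38.p6, 5′ to 3′ on the strand of the gene, with capitals on the motifs searched. The windows are chr1:20730655-20730904 (plus strand) for Il17a, chr11:53634703-53634952 (minus strand) for Il13 and chr11:53618666-53618915 (minus strand) for Il4, whose second annotated start site was used.
Il17a: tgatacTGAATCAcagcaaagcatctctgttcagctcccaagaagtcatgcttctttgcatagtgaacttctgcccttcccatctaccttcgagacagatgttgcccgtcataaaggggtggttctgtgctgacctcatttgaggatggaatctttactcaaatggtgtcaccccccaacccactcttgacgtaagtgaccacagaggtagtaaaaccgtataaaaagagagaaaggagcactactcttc
Il13: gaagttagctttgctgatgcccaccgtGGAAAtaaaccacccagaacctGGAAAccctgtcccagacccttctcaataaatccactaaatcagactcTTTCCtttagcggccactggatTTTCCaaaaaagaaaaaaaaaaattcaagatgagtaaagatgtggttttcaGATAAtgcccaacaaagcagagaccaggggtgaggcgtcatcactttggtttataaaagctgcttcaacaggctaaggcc
Il4: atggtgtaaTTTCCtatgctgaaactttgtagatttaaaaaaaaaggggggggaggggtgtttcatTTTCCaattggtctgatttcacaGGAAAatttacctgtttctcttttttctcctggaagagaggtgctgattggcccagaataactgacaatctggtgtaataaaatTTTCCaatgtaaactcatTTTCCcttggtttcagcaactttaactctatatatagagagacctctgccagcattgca
The motifs were searched on both strands: GGAAA, the core letters for NFAT; TGANTCA for AP-1; and GATAA for GATA factors. The Il4 window held 5 matches to the NFAT letters and no other motif, the Il13 window 4 matches to the NFAT letters and 1 to the GATA letters, and the Il17a window 1 match to the AP-1 letters and none to the NFAT letters. The Il5 window held 2 NFAT matches and the Il3 window 1 NFAT and 2 GATA matches. Of all 32851 RefSeq promoter windows of the same length, 55.6% held the NFAT letters, 6.75% the AP-1 letters, and 22.6% the GATA letters, so a match is a description of the letters and not a bound site.

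The table held 12846 cells, with 10947009 to 51398728 UMIs per library. In the stimulated libraries the median UMIs per cell were 23669 and 24652 in the CD4 class of SDHA-KO replicates 1 and 2 against 14753 and 14464 in WT, and 30662 and 29912 against 13152 and 13265 in the CD8 class. Deeper cells show a UMI of a gene more often, so shares of cells are also given after thinning each cell to 5000 UMIs. The median share of mitochondrial UMIs was 1.77 to 1.79% in SDHA-KO and 14.9 to 15.9% in WT cells of the stimulated CD4 class, and 3.22 to 3.42% and 16.9 to 18.96% in the CD8 class; its part in the results was not tested. Sdha itself measured 26.5 and 26.4 CPM (UMIs per 1e6 UMIs, scaled by TMM) in the stimulated SDHA-KO CD4 class against 74.0 and 73.0 CPM in WT, and 53.2 and 50.4 against 76.2 and 74.9 CPM in the CD8 class. A barcode was shared between libraries 23 times, touching 46 cells.

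T cell receptor and CD3 transcripts were found in 99.6 to 100% of stimulated cells, but the CD8 class of the SDHA-KO libraries differed in makeup from that of WT. Markers of γδ T cells (5 of the 8 listed genes were in the table) summed to 252.6 to 259.3 CPM there against 17.6 to 20.7 CPM in WT, and were found in 63.9 to 65.9% of SDHA-KO and 6.398 to 8.39% of WT cells. A Cd8a or Cd8b1 UMI was found in 57.7 to 62.4% of SDHA-KO against 91.9 to 92.5% of WT cells of that class. The label CD8 therefore covered, in SDHA-KO, a mixture with many cells that carried γδ receptor transcripts, and values in the stricter class without Trdc cells are given for the members and for the list genes that could be tested there. NK cell markers summed to 207.3 to 220.3 CPM in SDHA-KO and 77.9 to 112.5 CPM in WT of the CD8 class. In SDHA-KO replicate 1 alone, B cell markers were at 344.6 CPM (64.0 in replicate 2; 50.0 to 53.7 in WT), plasma cell markers at 44.1 CPM (2.67; 1.12 to 1.96) and mast cell and basophil markers at 98 UMIs (1; 0 to 2). The part of these cells in the results was not tested. In the CD4 class the γδ T cell markers summed to 15.2 to 20.5 CPM in SDHA-KO and 4.90 to 5.26 CPM in WT. In sums over cells, more cells that make a cytokine and more mRNA per cell cannot be told apart.

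Among the type 2 genes, Il13 had the most UMIs of the set in stimulated SDHA-KO, 6244 over both classes, but not in the WT CD4 class. In the stimulated CD4 class it was counted 3176 and 282 times in SDHA-KO replicates 1 and 2 and 229 and 20 times in WT replicates 1 and 2, or 103.4, 7.63, 8.37 and 0.649 CPM. SDHA-KO replicate 1 stood alone at the top, while SDHA-KO replicate 2 lay just below WT replicate 1, so the groups overlapped and the 12.3-fold ratio of the means (55.5 ± 67.7 against 4.51 ± 5.46 CPM; SD, n = 2 each) was carried by 1 library. Set against the WT mean, SDHA-KO replicate 1 was 22.9 times and replicate 2 was 1.69 times as high. In the CD8 class Il13 measured 80.6 and 66.3 CPM in SDHA-KO and 5.92 and 1.21 CPM in WT. Here both SDHA-KO libraries lay above both WT libraries, 20.6-fold apart in the mean (73.4 ± 10.1 against 3.56 ± 3.33 CPM; SD, n = 2 each). In replicate 2, 2 cells held 502 and 191 of its 1071 Il13 UMIs, so the closeness of the SDHA-KO replicates rested on few cells.

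Il4, the cytokine that drives and marks type 2 differentiation, was at 10.8 and 3.06 CPM in the stimulated SDHA-KO CD4 class and at 11.4 and 1.04 CPM in WT. The 2 replicate 1 libraries were alike and high, the 2 replicate 2 libraries low, and the groups overlapped with a ratio of 1.12. In the CD8 class Il4 was at 20.4 and 4.77 CPM in SDHA-KO and 1.62 and 1.44 CPM in WT, an 8.21-fold ratio with no overlap, whereas in cells under 10% mitochondrial UMIs the groups overlapped (0.552 to 18.5 against 0.511 to 1.65 CPM). The WT libraries were close to each other and the SDHA-KO libraries were not. A single cell held 66 of the 77 Il4 UMIs of SDHA-KO replicate 2 in the CD8 class, so its place above WT rested on that cell. In replicate 1 a single cell held 186 of the 433.

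Il5, the eosinophil growth factor, was scarce. It was counted 30, 3, 7 and 6 times in the CD4 class (SDHA-KO 1, SDHA-KO 2, WT 1, WT 2) and 3, 22, 2 and 6 times in the CD8 class, with overlap in both. Il5 did not pass the filter on low counts in either class. The 22 UMIs of SDHA-KO replicate 2 in the CD8 class came from 2 cells of 11 UMIs each.

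Il3 followed another order than Il13 in the CD4 class. It was at 5.50 and 3.43 CPM in SDHA-KO and at 9.13 and 4.58 CPM in WT, a ratio of 0.652 with overlapping groups. In the CD8 class it was at 11.98 and 9.66 CPM in SDHA-KO and 2.79 and 1.91 CPM in WT, a 4.60-fold ratio. There the 2 SDHA-KO libraries agreed within a narrow range and lay above both WT libraries.

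Among the type 17 genes, Il17a showed the sharpest contrast in the CD4 class. It was counted 2914 and 554 times in the SDHA-KO libraries (94.8 and 15.0 CPM) and was not found in 859 and 967 stimulated WT cells, which allows shares of up to 0.428% and 0.381% of cells with a UMI. The pooled SDHA-KO libraries were set against 3 UMIs over both WT libraries together, the upper limit for a count of 0 in the group. They were 993.6-fold higher, and replicates 1 and 2 were 1839-fold and 290.6-fold higher. That limit takes UMIs as independent, but they lay in few cells, so these ratios are not lower limits. Cells with 10 or more Il17a UMIs were 0.88% and 0.31% of SDHA-KO replicates 1 and 2, the latter below both WT limits on shares. In the CD8 class Il17a was counted 21 and 58 times in SDHA-KO and not at all in WT. The 21 UMIs of replicate 1 were spread over 21 cells, and 55 of the 58 UMIs of replicate 2 came from 1 cell.

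Whether single Il17a UMIs in a cell were background was not tested. In SDHA-KO replicate 1 an Il17a UMI was found in 3.82% (95% exact binomial interval 2.78 to 5.11%) of CD4 class cells with fewer than 10 Il17a UMIs, at a median depth of 23669 UMIs. It was found in 4.11% (2.56 to 6.21%) of CD8 class cells at 30662 UMIs. Of the CD8 class cells that had Cd8 but neither Cd4 nor Trdc transcripts, 5.33% (2.46 to 9.87%) had it, at 33462 UMIs. Intervals and upper limits cover counting error only. With overlapping intervals in cells of each kind, the level of the CD8 class of replicate 1, 0.987 CPM, is not read as expression. Cells with 10 or more UMIs of a member are called producing cells below.

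Il22, which acts on epithelial cells, went with Il17a in the CD4 class, with 1515 and 201 UMIs in SDHA-KO (49.3 and 5.44 CPM) and 1 and 0 in WT. Over the pooled libraries the ratio was 1475, with a counting interval of 264.4 to 58290 that reflects the single WT UMI. Within the CD8 class Il22 was at 2.44 and 19.1 CPM in SDHA-KO and at 0.203 and 0 CPM in WT, where the 5 UMIs came from 1 cell. By CPM the order of the SDHA-KO replicates was opposite in the 2 classes, replicate 1 higher in CD4 and replicate 2 higher in CD8. Of the 308 CD8 class Il22 UMIs of SDHA-KO replicate 2, 242 and 64 were in 1 cell each. By number of cells with an Il22 UMI, SDHA-KO replicate 1 was the higher of the 2 in the CD8 class. These cells numbered 14 and 1 with Trdc, 7 and 2 with Cd8 but no Trdc, and 1 and 0 with neither.

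Il17f, the neighbor of Il17a, did not share its pattern. It was at 0.553 and 1.30 CPM in the SDHA-KO and 0.804 and 0.422 CPM in the WT CD4 class, with overlap and a ratio of 1.51, and 28 of the 48 UMIs of SDHA-KO replicate 2 came from 1 cell. Among CD8 class cells it was at 0.470 and 0.248 CPM in SDHA-KO and 0.689 and 0.701 CPM in WT, the 1 member with both SDHA-KO libraries below both WT libraries there. It did not pass the filter on low counts in the CD8 class.

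Il10 differed between the classes. In the stimulated CD4 class it was at 0.423 and 0.487 CPM in SDHA-KO and 1.61 and 0.681 CPM in WT, both SDHA-KO libraries below both WT libraries at a ratio of 0.398; this order was lost in CD4 class cells that had Cd4 but neither Cd8 nor Trdc transcripts, at 0.530 to 0.813 CPM in SDHA-KO and 0.584 to 0.758 CPM in WT. These were few molecules, 13, 18, 44 and 21 UMIs, of which 16 of the 18 in SDHA-KO replicate 2 and 33 of the 44 in WT replicate 1 came from 1 cell each. CD8 class cells had Il10 at 27.9 and 4.89 CPM in SDHA-KO and 1.26 and 2.88 CPM in WT, a ratio of 7.92, of which replicate 1 was 13.5 times and replicate 2 was 2.37 times the WT mean.

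In all, 2 of 8 members (Il17a, Il22) had both SDHA-KO libraries above both WT libraries in the stimulated CD4 class, 1 (Il10) had them below, and 5 overlapped. Within the CD8 class 6 (Il4, Il13, Il3, Il10, Il17a, Il22) had them above, Il17f below, and Il5 overlapped. Over all genes tested, 37.8% in the CD4 class and 38.8% in the CD8 class had both SDHA-KO libraries above both WT libraries. The CD4 count was thus below that share. The choice of members rested on these values, and nothing is read from either count. The share of all genes with both below was not computed, and nothing is read from those counts. Il17a of the CD8 class in SDHA-KO replicate 1 rested on single UMIs.

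**Figure D1:**
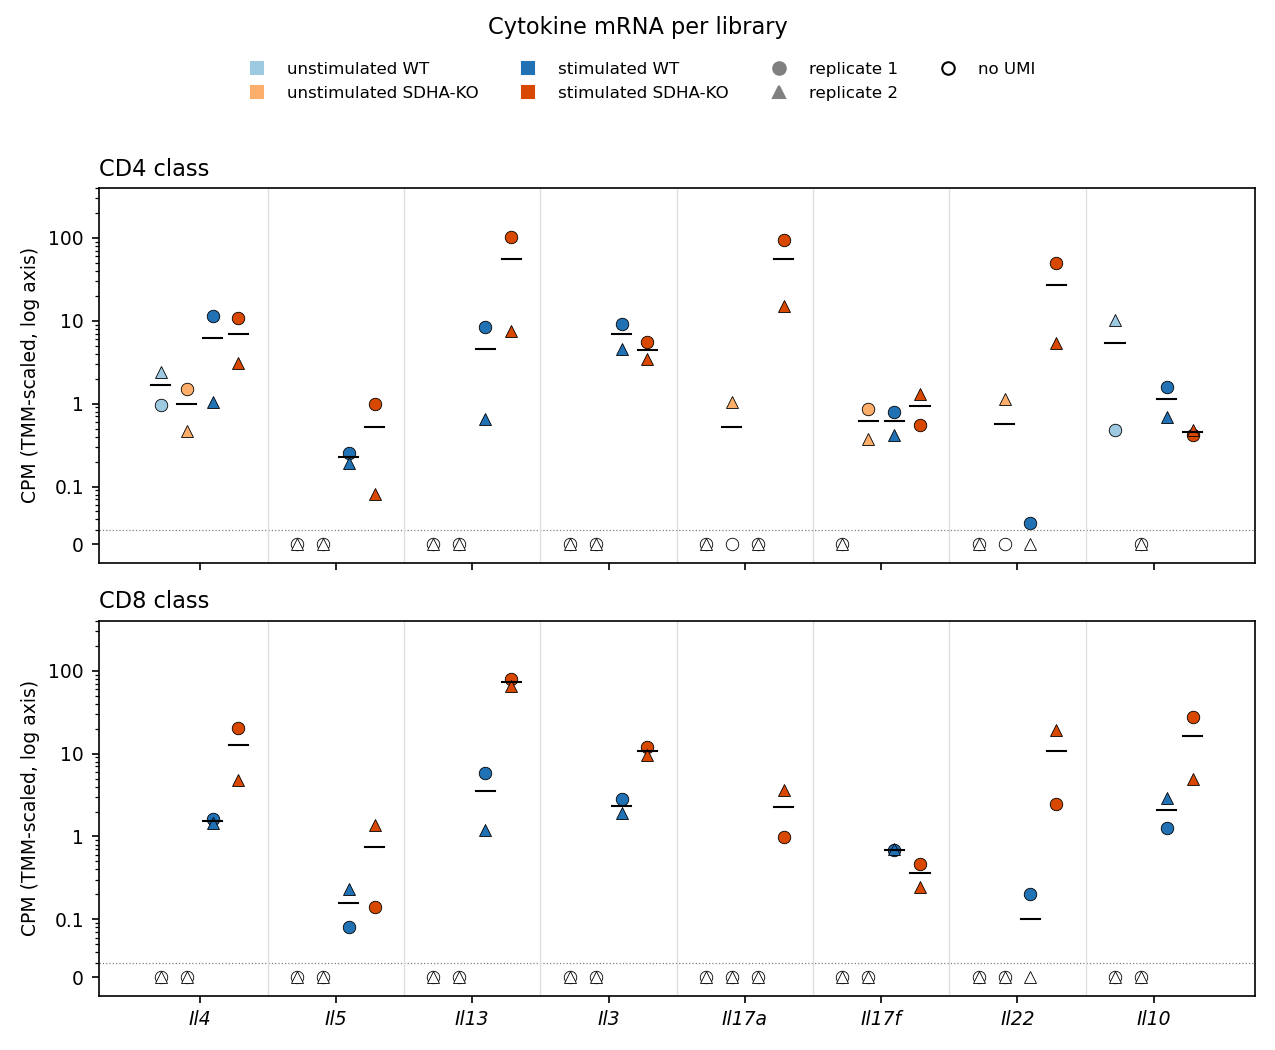
TMM-scaled CPM (log axis, with 0 below the dotted line) of the 8 cytokines in each library, CD4 class above and CD8 class below; points are libraries and short lines the group means. In the CD4 class Il17a and Il22 are at 94.8 and 49.3 CPM in stimulated SDHA-KO replicate 1 with at most 1 UMI in stimulated WT, and the 2 SDHA-KO replicates lie far apart for Il13, Il17a and Il22.

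Most of this mRNA sat in very few cells. The top 1% of CD4 class cells (12 of 1137 in SDHA-KO replicate 1 and 13 of 1284 in replicate 2) held 98.6% and 100% of the Il17a UMIs, 90.2% and 88.3% of the Il13 UMIs and 98.1% and 100% of the Il22 UMIs. The highest single cells of replicate 1 held 1724 UMIs of Il13, 1285 of Il17a and 732 of Il22. In replicate 2 the highest cells held 44, 232 and 189, the last being 94.0% of all Il22 counted there.

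Among CD8 class cells the mRNA was less concentrated. The top 1% (6 of 511 and 4 of 396 cells) held 44.4% and 79.5% of the Il13 UMIs and 50.4% and 64.6% of the Il10 UMIs in SDHA-KO replicates 1 and 2. An Il13 UMI was found in 23.7% and 9.60% of SDHA-KO cells and in 2.01% and 1.68% of WT cells; after thinning to 5000 UMIs the shares were 11.8% and 6.41% against 0.951% and 0.721%. Among cells with fewer than 10 Il13 UMIs in SDHA-KO replicate 1, an Il13 UMI was found in 18.6% of CD8 class cells, in 15.5% of those that had Cd8 but neither Cd4 nor Trdc transcripts and in 10.2% of CD4 class cells (median depths 30038, 31653 and 23599 UMIs), so part of these shares may be free RNA and they are not read as a share of cells that make Il13. For Il10 the thinned shares were 6.31% and 1.79% against 0.713% and 1.20%, with both SDHA-KO libraries still above WT.

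In the CD4 class the thinned share of cells with an Il13 UMI was 5.64% and 1.42% in SDHA-KO and 0.713% and 0.317% in WT. For Il3, in contrast, the thinned share was lower in both SDHA-KO libraries, 1.04% and 0.501% against 2.14% and 1.69%. Leaving out the top 1% of cells showed the same: Il3 was then at 0.243 to 0.521 CPM in SDHA-KO and 1.27 to 2.56 CPM in WT, and Il13 at 0.893 to 10.2 CPM in SDHA-KO and 0 to 0.0974 CPM in WT. Il17a and Il22 overlapped between the groups in both classes once those cells were left out.

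**Figure D2:**
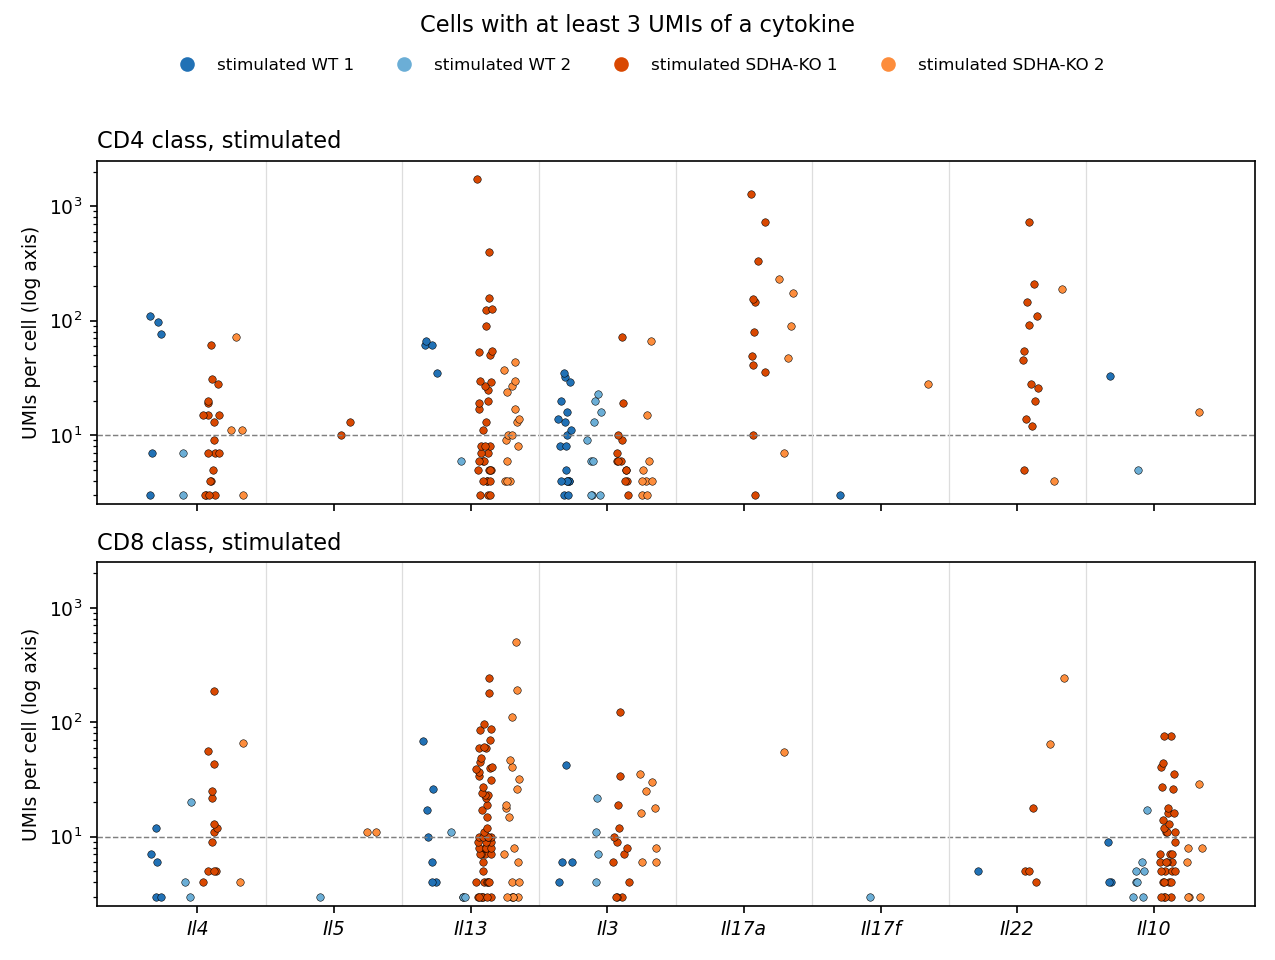
UMIs of each cytokine per cell (log axis) for the stimulated cells with at least 3 UMIs, by library; the dashed line marks 10 UMIs. The highest cells are in SDHA-KO replicate 1 of the CD4 class, at 1724 UMIs for Il13 and 1285 for Il17a, and no WT cell had 3 UMIs of Il17a.

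By the deposited Subtypes, the high CD4 class cells fell largely in a small cluster. Tem7 held 95 and 101 SDHA-KO cells (8.36% and 7.87% of the CD4 class) and 33 and 30 WT cells (3.84% and 3.10%). It held 97.3% and 57.6% of the Il17a UMIs in SDHA-KO replicates 1 and 2, 97.2% and 98.0% of the Il22 UMIs, and 89.4% and 62.4% of the Il13 UMIs. The Il17a level within Tem7 was 1814 and 218.6 CPM (relative to the UMIs of those cells, without TMM, as are the values by Subtype and by receptor below).

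Tem7 was also the main site of Il4 and Il13 mRNA in WT replicate 1, but not in WT replicate 2. In WT replicate 1 it held 98.7% of the Il13 UMIs (226 of them) and 93.9% of the Il4 UMIs (292). Most of that signal came from 3 cells with 110, 98 and 76 Il4 UMIs and 61, 61 and 66 Il13 UMIs, which also carried 14, 71 and 30 UMIs of Zbtb16 (1 more cell had 35 Il13 UMIs), the gene for PLZF, a transcription factor of innate-like T cells such as NKT cells. WT replicate 2 had no cell with 10 Il4 UMIs. Its few UMIs were led by Tcm4 for Il4 (9 of 32) and by Tem2 for Il13 (6 of 20). The difference between the WT replicates in Il4 and Il13 rested on the few high cells of replicate 1.

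Il3 lay elsewhere. In WT 48.4% and 50.4% of its CD4 class UMIs were in Tcm4 (40.3 and 26.0 CPM in 179 and 163 cells), a cluster with 74 and 75 cells and 5 and 6 Il3 UMIs in SDHA-KO. In SDHA-KO most Il3 came from Tem3 (50.3%, replicate 1) and Tem7 (58.3%, replicate 2). These shares rested on few cells: 1 cell held 72 of the 169 Il3 UMIs of replicate 1, and 1 cell 67 of the 127 of replicate 2. CD8 class Tem1 cells led both Il13 (43.5% and 50.3%) and Il3 (58.4% and 35.3%) in SDHA-KO, with 136 and 111 SDHA-KO cells and 16 cells in each WT library. Il10 of the CD8 class had no such home, led by Tcm4 (29.2%) in replicate 1 and by Tem2 (43.0%) in replicate 2.

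Producing cells of at least 1 member numbered 43, 18, 14 and 4 in the CD4 class (SDHA-KO 1, SDHA-KO 2, WT 1, WT 2) and 51, 18, 5 and 5 in the CD8 class. A cut of 10 UMIs is reached more easily in deeper cells, and SDHA-KO cells were deeper. CD8 class producing cells of SDHA-KO had medians of 52276 and 39818 UMIs, against 29500.5 and 29731.5 in the others. The part of depth in these counts was not tested. A Trac, Trbc1 or Trbc2 UMI was present in each of the producing cells of SDHA-KO, and a basophil or mast cell marker in 1 of them, an Il3 producing cell of the CD8 class. Il17a producing cells numbered 10 and 4 in the SDHA-KO CD4 class. All 10 of replicate 1 carried Cd4 and Trac UMIs and none a Cd8 UMI, and 3 carried Trdc, against 9.94% of the other cells.

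Il23r, the IL-23 receptor, was in 4 of 10 and 3 of 4 Il17a producing cells, against 1.597% and 0.859% of the others. Maf was in 6 of 10 Il17a producing cells of replicate 1, against 3.64% of the others. Of the 4 in replicate 2, 3 carried Trdc and 3 carried Cd4.

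Il13 producing cells overlapped with these in part. Of the 18 in the CD4 class of SDHA-KO replicate 1, 16 carried Gata3, which was also in 78.5% of the other cells, 6 carried Maf and 4 carried Il23r, against 1.61% of the others; in replicate 2, 7 of 10 carried Maf against 2.35% of the others. Within the CD8 class 27 of 32 and 8 of 10 carried Gata3, against 55.3% and 39.4% of the others. No Il10 producing cell of SDHA-KO, 16 and 1 in the CD8 class and 0 and 1 in the CD4 class, carried Foxp3, the regulatory T cell factor. Foxp3 was rare in the other cells too, at 0.606% and 1.27% in the CD8 class and 1.87% in the CD4 class of replicate 2. Its absence therefore does not set these few cells apart.

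Some cells made more than 1 member at 10 or more UMIs: 10, 4, 3 and 0 cells in the CD4 class and 11, 3, 1 and 0 in the CD8 class, in the same order of libraries. In the CD4 class of SDHA-KO replicate 1 these were mostly mixed type 2 and type 17 or type 17 cells, 5 with Il13 and Il17a, 4 with Il17a and Il22 and 2 with Il13 and Il22. A Tem7 cell held 1724 Il13 and 335 Il17a UMIs, and another 1285 Il17a and 127 Il13 UMIs. In WT replicate 1 the 3 cells with more than 1 member had the classical type 2 pair, Il4 with Il13.

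Among CD8 class cells of SDHA-KO replicate 1 the pairs were Il4 with Il13 in 5 cells, Il13 with Il10 in 3, Il4 with Il10 in 2 and Il13 with Il3 in 1, with no type 17 pair. Replicate 2 had 2 cells with Il5 and Il13, of which 1 held 502 Il13 and 11 Il5 UMIs and the other 112 Il13, 66 Il4 and 11 Il5 UMIs, and 1 cell with 55 Il17a and 242 Il22 UMIs. Il17a and Il17f met at 10 UMIs in 1 cell, a Tem2 cell of the CD4 class in SDHA-KO replicate 2 with 232 Il17a and 28 Il17f UMIs. The cell with the most Il22, 732 UMIs, had no Cd4, Trac or Trdc UMI and 1 Trbc2 UMI.

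**Figure D3:**
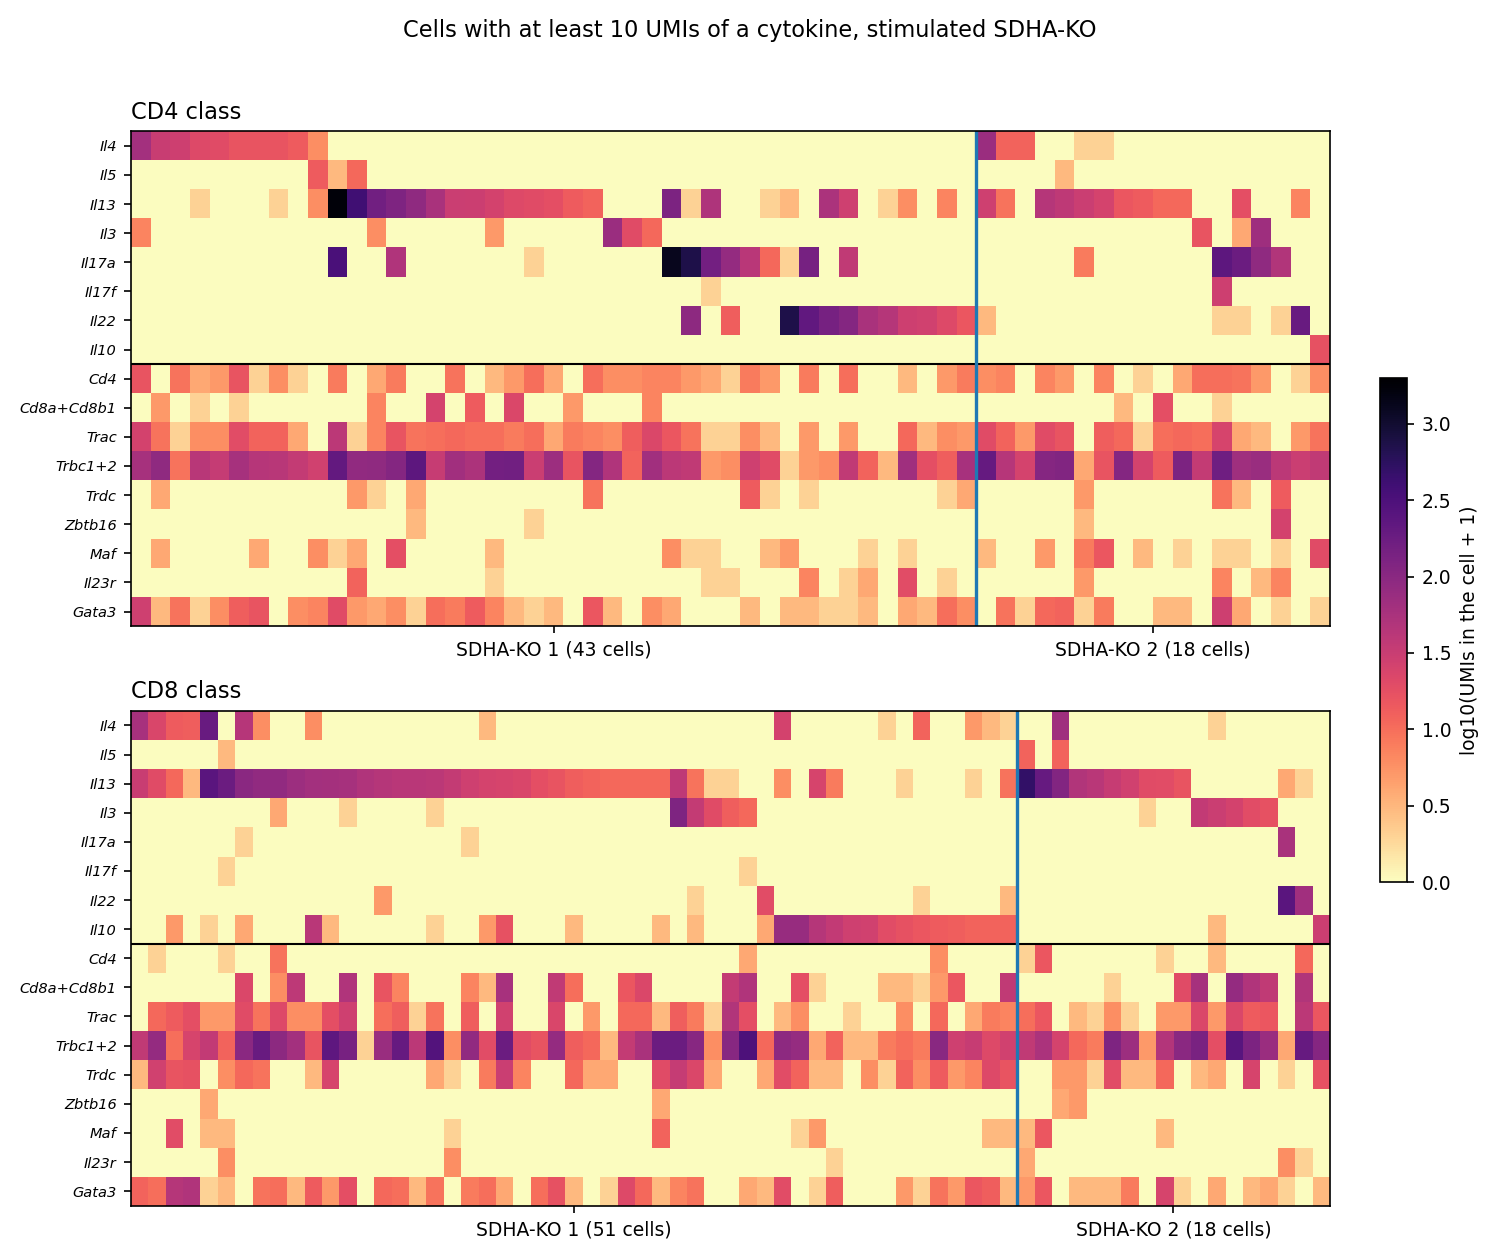
Each column is a stimulated SDHA-KO cell with at least 10 UMIs of a cytokine, CD4 class above and CD8 class below, and color gives log10(UMIs + 1); the upper rows are the cytokines and the lower rows lineage genes. Of the 43 and 18 CD4 class cells 10 and 4 had more than 1 cytokine at 10 UMIs, and Trdc is seen more often in the CD8 class.

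Sdha was then counted in the producing cells, a comparison added after the values of the members had been seen and given as CPM of those cells. In the SDHA-KO CD4 class the Il17a producing cells carried 23 and 16 Sdha UMIs, or 77.8 CPM (95% exact Poisson interval 49.3 to 116.8) and 90.4 CPM (51.7 to 146.8). Cells producing none of the members carried 27.7 CPM (25.7 to 29.7) and 28.1 CPM (26.4 to 29.99), and the same cells of WT 80.1 and 77.4 CPM. The Il17a producing cells of the knockout libraries thus had Sdha mRNA at about the WT level.

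Il22 and Il13 producing cells of the CD4 class were close to this. The Il22 producing cells of replicate 1 carried 97.8 CPM of Sdha (61.3 to 148.1), and the Il13 producing cells 63.4 (46.4 to 84.6) and 66.1 CPM (40.9 to 101.1). Il4 producing cells, in contrast, carried 22.9 (9.19 to 47.1) and 36.6 CPM (9.98 to 93.8), near the rest of the knockout cells in replicate 1 and with a wide interval in replicate 2. Over the whole Tem7 cluster Sdha was at 61.4 (49.8 to 75.0) and 56.9 CPM (45.3 to 70.5) in SDHA-KO and 89.5 and 69.6 CPM in WT.

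CD8 class Sdha levels went with the γδ receptor. SDHA-KO cells with a Trdc UMI carried 74.0 (69.2 to 79.1) and 70.9 CPM (65.4 to 76.7), and those without one 36.9 (32.6 to 41.6) and 33.6 CPM (29.1 to 38.6), whereas WT cells carried 80.0 and 88.3 CPM with Trdc and 90.3 and 86.2 CPM without. Il10 producing cells of SDHA-KO replicate 1 carried 84.7 CPM (65.5 to 107.8) and Il3 producing cells 38.6 (22.1 to 62.8) and 30.3 CPM (13.8 to 57.5). Il13 producing cells of this class carried 52.0 (41.7 to 64.0) and 82.9 CPM (55.1 to 119.8). The part of retained Sdha transcript in the cytokine levels was not tested, and 3′ tags do not show whether a transcript is intact.

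Splitting the CD8 class by receptor UMIs moved the members apart. Cells with a Trdc UMI were 59.1% and 56.1% of the SDHA-KO class and 3.67% and 4.92% of the WT class, and cells with a Cd8 and no Trdc UMI were 35.4% and 39.4% against 90.3% and 89.6%. A Trdc UMI was also found in 115 and 111 SDHA-KO cells of the CD4 class, and whether cells with such a UMI were γδ T cells was not tested. The Trdc cells of the CD8 class held 93.4% and 86.1% of the Il10 UMIs in SDHA-KO, at 47.2 and 7.80 CPM. The Cd8 cells without Trdc were at 0.919 and 0.548 CPM of Il10 in SDHA-KO and 1.20 and 2.74 CPM in WT, the reverse of the order of the whole class.

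Il4 divided in the same way, with 19.9 and 8.60 CPM in Trdc cells and 1.07 and 0.365 CPM in Cd8 cells of SDHA-KO, against 0.831 and 1.47 CPM in Cd8 cells of WT. A further 193 Il4 UMIs of SDHA-KO replicate 1 were in cells with neither receptor transcript, 186 of them in 1 cell. In replicate 2, 66 of the 75 Il4 UMIs of the Trdc cells were in 1 cell. Il13 and Il3 stayed higher in SDHA-KO among the Cd8 cells. Il13 was at 63.4 and 6.76 CPM there against 4.73 and 0.686 CPM in WT, and Il3 at 9.34 and 12.2 CPM against 3.53 and 2.35 CPM. The Cd8 cells of SDHA-KO replicate 2 held only 37 Il13 UMIs, 3.455% of its class, with 1 cell at 10 or more. Cells with neither receptor transcript held 355 (20.7%) and 699 (65.3%) of the Il13 UMIs in SDHA-KO replicates 1 and 2. These UMIs were in 8 and 6 of the 28 and 18 such cells, and in replicate 2 in 2 cells of 502 and 191 UMIs for the most part.

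In the stricter class, with a Cd8 UMI and neither a Cd4 nor a Trdc UMI, 4 of 8 members had both SDHA-KO libraries above both WT libraries (Il13, Il3, Il17a, Il22) in place of 6. Il17a and Il22 were at only 0.357 to 1.32 CPM in SDHA-KO there. For Il17a these were the single UMIs described above, and an Il22 UMI was in 3.55% and 0.680% of these cells of replicates 1 and 2, against 2.13% and 0.624% of CD4 class cells with fewer than 10, so neither is read as expression. Il13 was at 6.42 to 47.4 CPM there against 0.592 to 4.16 CPM in WT and Il3 at 5.999 to 11.6 CPM against 0.956 to 3.11 CPM. Il4 overlapped, at 0.178 to 1.02 CPM against 0.731 to 1.37 CPM, and Il10 was lower in SDHA-KO, at 0.535 to 0.878 CPM against 1.05 to 2.37 CPM. In the stricter CD4 class (a Cd4 UMI and no Cd8a, Cd8b1 or Trdc UMI) Il4 and Il13 joined Il17a and Il22, with Il13 at 9.28 to 132.8 CPM in SDHA-KO against 0.389 to 0.583 CPM in WT and Il4 at 4.40 to 13.5 CPM against 0.973 to 1.23 CPM. The share of all genes with these orders was not computed in the stricter classes, so nothing is read from the counts of members there.

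**Figure D4:**
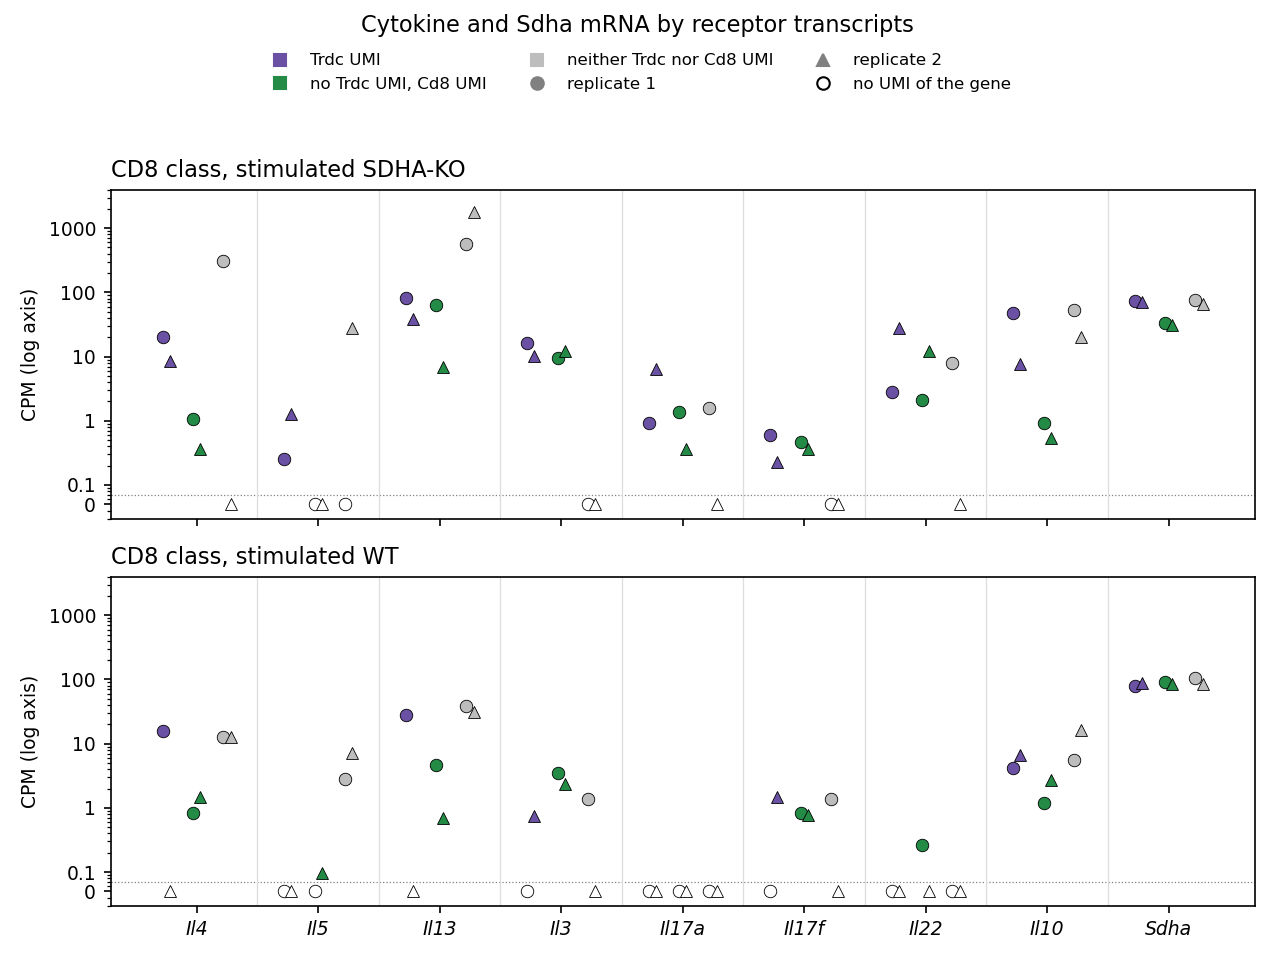
CPM (log axis, with 0 below the dotted line) of each cytokine and of Sdha in CD8 class cells with a Trdc UMI, with a Cd8 but no Trdc UMI, or with neither; points are the stimulated libraries. Il10 in SDHA-KO is at 47.2 and 7.80 CPM in Trdc cells and under 1 CPM in Cd8 cells, and Sdha in SDHA-KO is at 74.0 and 70.9 CPM in Trdc cells.

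Genes whose levels were most like those of the members were sought next. Likeness was Pearson's r of log2(CPM + 1) over 113 sums of at least 20 cells per library and Subtype, which share libraries and depth, among 9606 genes, and is given as a description. Il17a was closest to Il22 (r = 0.83), followed by Ccl1 (0.63) and Il13 (0.56). Il13 was closest to Csf2, encoding GM-CSF (0.82), and Havcr2, encoding the inhibitory receptor TIM-3 (0.79). Il3 was closest to the chemokine gene Ccl3 (0.74) and to Csf2 (0.73), Il10 to Havcr2 (0.73), Tnfrsf8 (0.67) and Ifng (0.67), and Il4 to Asb2 (0.70). Il5 and Il17f had under 200 UMIs in stimulated SDHA-KO and were not compared.

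The producing cells were then compared with the other cells of their class. Il13 producing cells of the CD4 class had 50.1 and 29.0 times as much Csf2 as the other cells in SDHA-KO replicates 1 and 2, 27.3 and 22.8 times as much Ccl3, 44.7 and 20.3 times as much Il1r2, the decoy receptor for IL-1, and 10.9 and 12.9 times as much Lta, encoding lymphotoxin α. A single cell of replicate 1 held 738 Ccl3 UMIs, and of the 10 such cells of replicate 2, 5 had a Ccl3 UMI and 4 a Csf2 UMI, whereas Lta was found in all 18 and 10. Within the CD8 class Il13 producing cells had 6.05 and 16.2 times as much Csf2 and 2.07 and 5.12 times as much Gata3. Il3 producing cells of the CD8 class had 9.70 and 16.2 times as much Csf2 and 8.10 and 5.51 times as much Ifng.

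Unstimulated cells held few of these transcripts. No member was counted in the unstimulated CD8 class of any library, and Il5, Il13 and Il3 were not counted in the CD4 class. Il4 was at 1.52 and 0.472 CPM in SDHA-KO and 0.962 and 2.40 CPM in WT, with overlap. Il17a and Il22 were found in 1 of the 4 libraries, SDHA-KO replicate 2, with 11 UMIs in 3 cells and 12 UMIs in 6 cells. Il17f was counted 8 and 4 times in SDHA-KO and not in WT, and of the 68 Il10 UMIs of WT replicate 2, 67 came from 1 Tem1 cell.

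Genes of the same pathways that are not members were tested with edgeR's quasi-likelihood test over all genes, with Benjamini-Hochberg adjusted p-values. In the stimulated CD4 class 22.7% of 14264 genes were higher and 20.5% lower in SDHA-KO at an adjusted p below 0.05, and in the CD8 class 26.8% and 23.5% of 13095 genes, so a share of calls near these is no particular result. Of the type 2 program (16 genes, such as Gata3, Stat6 and Il1rl1), 6 of 14 tested genes were higher and 3 lower in the CD4 class, with a median log2 fold change of 0.84 against 0.00 over all genes, and 6 of 11 were higher and 2 lower in the CD8 class (median 0.62 against -0.01). Of the type 17 program (19 genes), 9 of 17 were higher and 3 lower in the CD4 class (median 1.10) and 7 of 14 higher and 4 lower in the CD8 class (median 1.52). In the stricter CD8 class without Trdc cells the median of the type 17 program was -0.04, with 3 of 9 tested genes higher and 1 lower, and that of the type 2 program 0.28, with 3 of 7 higher and 2 lower; in the stricter CD4 class the medians were 0.91 (6 of 16 higher, 4 lower) and 0.20 (5 of 11 higher, 2 lower). The lists share genes in part: Maf, Ahr and Nfil3 among the programs, Il4ra with the receptors below, and Il24 and Csf2 with the genomic neighbors below. Some calls are therefore counted again.

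Gata3 rose in the SDHA-KO CD4 class, by a log2 fold change of 1.36 (SE 0.22, adjusted p = 0.000521), as did Areg, encoding the epithelial growth factor amphiregulin, at 3.74 (SE 0.64, adjusted p = 0.000794). Il9, another type 2 associated cytokine, rose by 3.46 (SE 0.77, adjusted p = 0.00613; 0.0581 without WT replicate 1). Il24 rose by 2.30 (SE 0.68, adjusted p = 0.0236), but leaving out SDHA-KO replicate 1 ended the call at a log2 fold change of 0.45, as did leaving out either WT replicate (adjusted p 0.122 and 0.0577). Il17rb, encoding a subunit of the IL-25 receptor, fell by 1.74 (SE 0.54, adjusted p = 0.0236), a call that each of the 4 stimulated libraries, left out in turn, ended (adjusted p 0.075 to 0.186). Maf, a factor for IL-4 and IL-10, was at 0.34 (SE 0.18, adjusted p = 0.145), but at 0.52 without SDHA-KO replicate 1 (adjusted p = 0.0446).

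Among CD8 class genes, Il1rl1, encoding the IL-33 receptor ST2, rose by 3.20 (SE 0.67, adjusted p = 0.00331) and Il24 by 2.94 (SE 0.53, adjusted p = 0.00143). Pparg rose by 2.43 (SE 0.57, adjusted p = 0.00607), which did not pass when SDHA-KO replicate 1 was left out (1.18, adjusted p = 0.141). Gata3 at 0.73 (SE 0.25, adjusted p = 0.0297) and Maf at 1.54 (SE 0.58, adjusted p = 0.0447) also passed, but neither did without SDHA-KO replicate 1 (0.08 and 0.23), and Gata3 did not without WT replicate 1 (adjusted p = 0.191) nor Maf without WT replicate 2 (adjusted p = 0.262). The γδ markers moved with these CD8 class genes, as given above, and their part was not tested. In the stricter class Il24 was at 1.96 (adjusted p = 0.0107) and Gata3 at 0.80 (adjusted p = 0.0305), while Il1rl1, Pparg and Maf did not pass the count filter there.

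Of the type 17 genes in the CD4 class, Il1r1, a receptor that primes type 17 cells, rose by 3.601 (SE 0.63, adjusted p = 0.000913) and Csf2 by 3.04 (SE 0.39, adjusted p = 0.000117). Ccl20, the ligand of CCR6, was counted 23 and 113 times in SDHA-KO and not in WT (adjusted p = 0.00177). It was 38.97-fold higher against the same limit of 3 UMIs over both WT libraries, which takes UMIs as independent. Il21 rose by 3.41 (SE 0.83, adjusted p = 0.00668), which needed both WT replicate 1 (adjusted p = 0.0543 when it was left out) and SDHA-KO replicate 1 (0.107). Il23r rose by 2.00 (SE 0.51, adjusted p = 0.00831) and Cd163l1, a gene of IL-17 producing γδ cells, by 3.05 (SE 0.80, adjusted p = 0.0112). Both were past the threshold neither without WT replicate 1 (adjusted p 0.0757 and 0.0798) nor in the stricter CD4 class without Trdc (1.36, adjusted p = 0.161, and 1.12, adjusted p = 0.534), and Cd163l1 was not without SDHA-KO replicate 2 (0.0853).

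CD8 class Il21 rose by 5.39 (SE 0.75, adjusted p = 0.000303), Csf2 by 2.84 (SE 0.30, adjusted p = 3.7e-05), Ahr, the aryl hydrocarbon receptor that supports IL-22, by 1.93 (SE 0.30, adjusted p = 0.00033) and Sox13, a γδ lineage factor, by 1.76 (SE 0.48, adjusted p = 0.0108). Il23r rose by 1.54 (SE 0.57, adjusted p = 0.0439), which was lost without either WT replicate (adjusted p 0.271 and 0.12). In the stricter CD8 class Csf2 was at 2.82 (adjusted p = 1.38e-05) and Ahr at 2.09 (adjusted p = 0.00251), while Il21, Sox13 and Il23r did not pass the count filter. In the stricter classes 9 of the 11 called type 17 genes that could be tested kept their call in the CD4 class and 4 of 7 in the CD8 class.

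Of the IL-10 and regulatory program (17 genes), 5 were higher and 4 lower in the CD4 class (median 0.05), and 5 higher and 7 lower in the CD8 class (median 0.02; in the stricter class -0.38, with 3 of 14 higher and 7 lower). Ikzf2, encoding Helios, rose by 1.83 (SE 0.14, adjusted p = 3.16e-06) and Ahr by 2.23 (SE 0.31, adjusted p = 0.000208) in the CD4 class, whereas Ctla4, an inhibitory receptor, fell by 0.89 (SE 0.17, adjusted p = 0.0015) there and by 1.78 (SE 0.15, adjusted p = 4.85e-06) in the CD8 class. Tgfbr1, a TGF-β receptor subunit, fell by 1.09 in the CD8 class (SE 0.10, adjusted p = 6.46e-06); in the stricter class Ctla4 was at -1.70 (adjusted p = 2.95e-05) and Tgfbr1 at -1.04 (adjusted p = 2.42e-05). Foxp3 rose by 1.01 in the CD4 class (SE 0.30, adjusted p = 0.0181) and 1.501 in the CD8 class (SE 0.52, adjusted p = 0.0333), where it did not pass the count filter of the stricter class and the adjusted p was 0.188 in cells under 10% mitochondrial UMIs. The CD4 call was lost without WT replicate 2 (0.49, adjusted p = 0.128), without SDHA-KO replicate 2 (adjusted p = 0.053) and in the stricter class (0.18, adjusted p = 0.804). Nfil3 fell by 0.77 in the CD4 class (adjusted p = 0.0373), which did not pass when SDHA-KO replicate 2 (adjusted p = 0.16) or WT replicate 2 (0.246) was left out.

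Receptors for the member cytokines were called lower more often than higher, 3 and 1 of 7 tested in the CD4 class (median -0.16) and 4 and 0 of 6 in the CD8 class (median -0.44; 4 and 0 of 5 in the stricter class, median -0.71). Il4ra, the shared IL-4 and IL-13 receptor chain, fell by 0.50 (SE 0.10, adjusted p = 0.00246) and 0.69 (SE 0.08, adjusted p = 4.93e-05) in the CD4 and CD8 classes. Il10ra fell by 0.67 (SE 0.13, adjusted p = 0.00165) and 0.52 (adjusted p = 0.0074), and Il17ra by 0.38 (adjusted p = 0.00517) and 0.64 (adjusted p = 0.000197). Il10rb fell by 0.36 in the CD8 class (adjusted p = 0.0213). Il3ra rose by 0.50 in the CD4 class (adjusted p = 0.0375), which did not pass when WT replicate 2, SDHA-KO replicate 1 or SDHA-KO replicate 2 was left out (adjusted p 0.238, 0.0983 and 0.0733).

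Among genomic neighbors of the members, 6 of 10 were higher and 1 lower in each class (medians 0.28 and 0.38). In the stricter CD8 class 3 of 10 were higher and none lower (median 0.04), and in cells under 10% mitochondrial UMIs 3 of the 7 calls held in each class. Csf2, next to Il3, is given above. Ifng, next to Il22 and the signature cytokine of type 1 cells, rose by 2.78 (SE 0.41, adjusted p = 0.000336) and 1.87 (SE 0.18, adjusted p = 1.25e-05) in the CD4 and CD8 classes, and was at 1.64 in the stricter CD8 class (adjusted p = 7.58e-06).

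**Figure D5:**
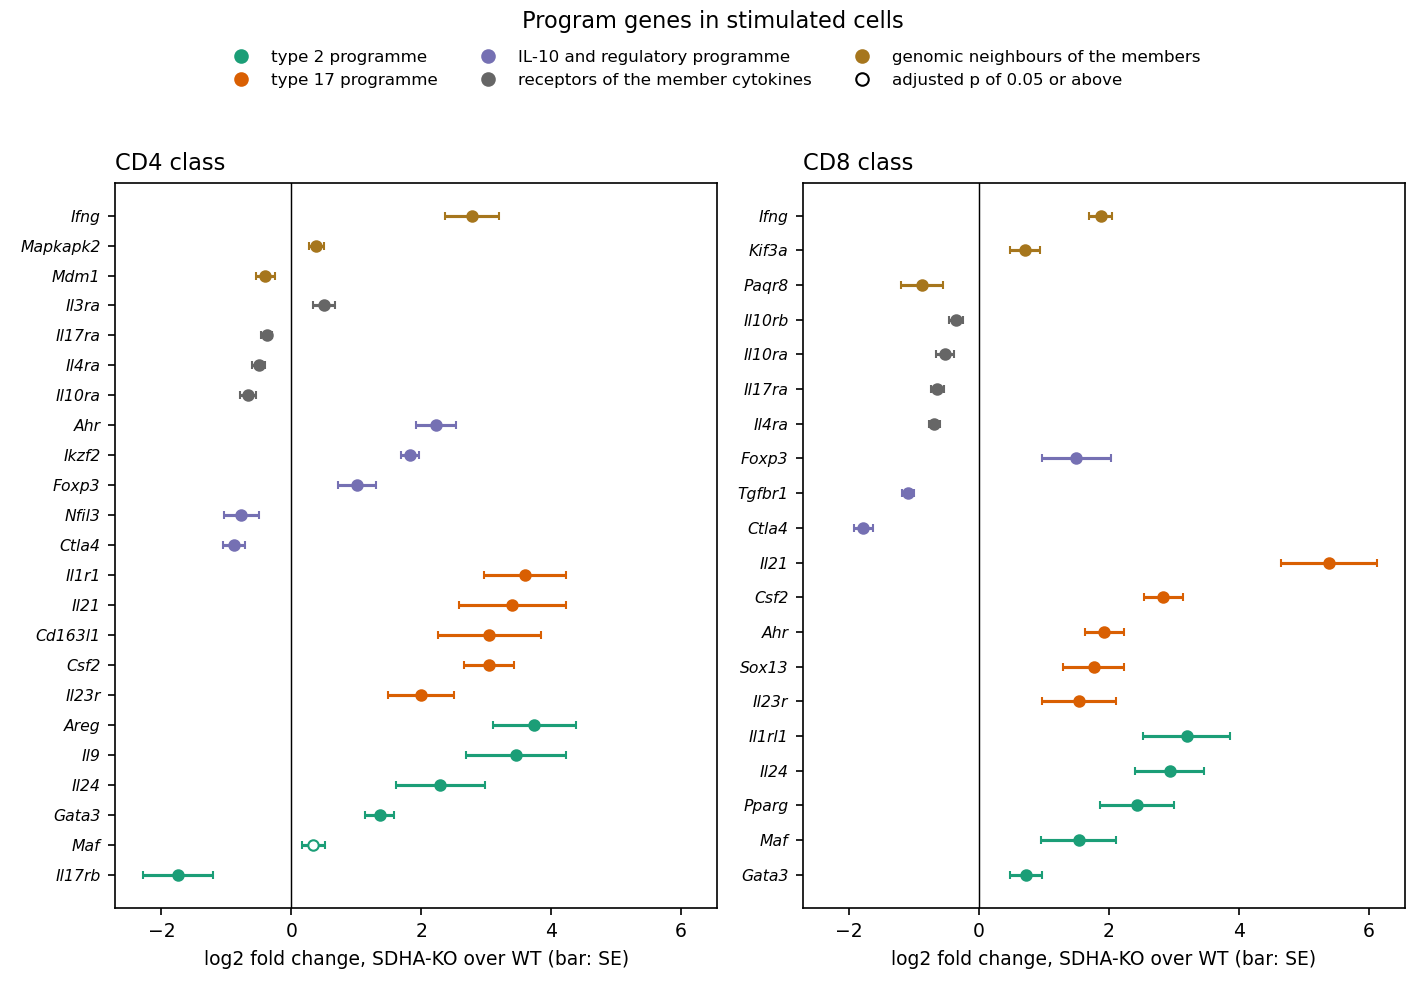
Log2 fold change of SDHA-KO over WT in stimulated cells (edgeR; bars are SE) for the named genes of the type 2, type 17 and regulatory programs, the cytokine receptors and the genomic neighbors; open points did not pass an adjusted p of 0.05. Il21 in the CD8 class lies farthest to the right at 5.39, and Il17rb in the CD4 class is at -1.74.

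Before stimulation few of these genes differed between the genotypes, against 0.526% of genes higher and 0.575% lower in the CD4 class and 0.283% and 0.664% in the CD8 class. Within the CD4 class Il1r1 was higher by 4.60 (5.86 and 5.66 CPM against 0 and 0.450; adjusted p = 0.017), Bhlhe40, a factor for cytokine production, by 1.57 (adjusted p = 0.00639), and Il3ra was lower by 1.37 (adjusted p = 0.0371). Within the CD8 class Ikzf2 was higher by 1.37 (adjusted p = 0.000794). None of these 4 calls held with every library left out in turn.

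In WT cells stimulation changed far more genes, 36.2% of genes higher and 30.1% lower in the CD4 class and 35.5% and 30.3% in the CD8 class. Of the type 2 program 6 genes were higher and 4 lower in the CD4 class and 6 and 0 in the CD8 class, and of the type 17 program 4 and 5, and 5 and 4. Within the CD4 class Maf fell by 3.94 (SE 0.17, adjusted p = 3.9e-09) and Foxp3 fell by 4.01 (SE 0.28, adjusted p = 2.03e-07), while Gata3 was at 0.06 (adjusted p = 0.841). The regulatory program had 8 genes higher and 7 lower in the CD4 class and 8 and 2 in the CD8 class, the receptors 2 and 3, and 2 and 2, and the genomic neighbors 7 and 1, and 8 and 2.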

How the data were processed

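T cells from 8 libraries (10x Genomics 3′ HT v3.1 chemistry) were analyzed from the processed files. The authors deposited UMI counts per gene and cell, made with Cell Ranger (version not given in the sources used here) and bcl2fastq on mm10, together with a table of the class, Subtype, UMI count and percent of mitochondrial UMIs of each cell. In Seurat they had removed cells with very many detected genes and clusters without CD3 transcripts, and had set CD4 and CD8 classes from clusters; doublet treatment beyond this is not given in the sources used here.

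Counts were summed per library and class; depth per library was 10947009 to 51398728 UMIs, and interval and upper limits cover counting error. Levels are CPM scaled by TMM (edgeR 4.0.16, R 4.3.3). Genes of the lists were tested over all genes passing edgeR's filter on low counts with the quasi-likelihood test on all 8 libraries and Benjamini-Hochberg adjustment; DESeq2 1.42.0 was an alternative. Of the members, 7 of 8 passed that filter in the CD4 class and 6 of 8 in the CD8 class. The scripts were tested on simulated data. Sums and intervals were computed with Python 3.11.15, numpy 2.4.6, scipy 1.17.1 and pandas 2.3.3.

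The members, gene lists and tests were chosen with earlier results of these data known. All members are named; of each list, at most the 5 called genes with the largest log2 fold change are named, plus Gata3, Foxp3, Maf and Il23r whether called or not; a further gene of the rule is not reported here; list genes not in the table (such as Ptgdr2 and Il13ra2) were not analysed here. Likeness genes are the 5 highest correlations per member, and profile genes the 10 largest ratios in producing cells, of which some are given. Alternatives were other normalizations, filters, tests, libraries and cells.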

Additional observations from a re-analysis of the deposited data

Results flagged for a closer look

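Il10 moved in opposite ways in the 2 classes: every stimulated SDHA-KO library lay below every stimulated WT library in the CD4 class, at a ratio of mean CPM of 0.3976, and above every WT library in the CD8 class, at a ratio of 7.921. The difference between the classes was not tested. Among the CD8 class cells that had Cd8 but neither Cd4 nor Trdc transcripts, the log2 ratio was -1.17, at 0.535 to 0.878 CPM in SDHA-KO and 1.05 to 2.37 CPM in WT. Among the CD4 class cells that had Cd4 but neither Cd8 nor Trdc transcripts the groups overlapped, at 0.530 to 0.813 CPM and 0.584 to 0.758 CPM, so the opposite orders were not seen in the stricter classes.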

How the results depend on the processing

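The number of genes called in stimulated SDHA-KO against WT was 6160 in the CD4 class and 6594 in the CD8 class, and 3335 and 3919 when a mean of at least 20 CPM was required; leaving out 1 library gave 4020 to 6234 and 4675 to 6604, the lowest CD4 count without stimulated WT replicate 1. Unstimulated, the counts of 157 and 124 were less stable: 281 and 264 with DESeq2, 643 and 225 with no filter, 445 and 338 with only the 4 libraries compared, 212 in the CD8 class at 20 CPM and 219 in its stricter class, and 18 to 263 and 10 to 172 with 1 library left out. Stimulated against unstimulated WT gave 9455 and 8606 calls, and 4571 and 4377 at 20 CPM. Without composition normalization the share of higher calls in that comparison was 65.4% in place of 54.6% in the CD4 class and 75.6% in place of 54.0% in the CD8 class, where the median over all genes was 0.30 and 0.57 (log2) in place of 0.08 and 0.09; in the unstimulated CD8 class the share was 73.0% in place of 29.8%, and with the RLE factors it was 37.6% in place of 47.8% in the unstimulated CD4 class. The causes were not tested. The members with both SDHA-KO libraries above both WT libraries were 4 in the stricter CD4 class and 1 without the top 1% of cells, in place of 2, and 2 to 5 with 1 library left out (5 without stimulated WT replicate 1, where Il4, Il13 and Il17f joined); in the CD8 class they were 4 in the stricter class, 4 in cells under 10% mitochondrial UMIs and 4 without the top 1% of cells, in place of 6, and 6 to 7 with 1 library left out. The share over all genes was not computed under these alternatives, so nothing is read from these counts of members. In cells under 10% mitochondrial UMIs Il4 and Il10 of the CD8 class overlapped between the groups, Il4 at 0.552 to 18.5 CPM in SDHA-KO and 0.511 to 1.65 CPM in WT and Il10 at 3.11 to 21.0 CPM in SDHA-KO and 1.27 to 3.13 CPM in WT. Over 9 alternatives for each of 8 members, the sign of the log2 ratio changed in 7 of 72 cases in the CD4 class and 4 of 72 in the CD8 class. Of 128 counts of producing cells at a cut of 3 or 30 UMIs, 60 moved past a preset margin. Of 64 shares of cells with a UMI, 45 lay outside the interval of the unthinned share after thinning. Of 1657 values of list genes under alternatives, 1490 stayed on the same side of the threshold, 156 lost the call and 11 gained one. No gene called in either fit changed direction, and direction was not followed for genes called in neither. With the replicate number as a block the calls were 5904 and 6346 (stimulated), 133 and 99 (unstimulated) and 9285 and 8402 (stimulated against unstimulated WT) in the CD4 and CD8 classes; replicates with the same number did not deviate together (r from -0.08 to 0.06), so they share only a number.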
